A study of Homo sapiens with 11 samples.

Results

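The 9 genes described here, all of the class I antigen presentation pathway, were measured in all 8 RNA libraries of 3 human cell lines. They are the heavy chain genes HLA-B, HLA-C, HLA-E and HLA-F, the light chain gene B2M, the peptide transporter genes TAP1 and TAP2, the peptide editor gene TAPBP and the regulator gene NLRC5. They were taken by gene symbol, and they are 9 of the 57815 genes listed in the files and 9 of the 19066 genes that passed the filter on low values. For TAP2, which stands under 2 gene identifiers, the one with the higher mean was used. No value of the 9 had a failed status.

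Class I molecules carry short peptides from the inside of a cell to its surface, where CD8 T cells read them. A heavy chain pairs with beta-2-microglobulin in the endoplasmic reticulum, the TAP1 and TAP2 proteins pump peptides from the cytosol into it, and tapasin, the product of TAPBP, holds empty class I molecules at the transporter. NLRC5 acts in the nucleus as a transactivator of class I genes, and interferon raises the whole set; low class I levels are a known trait of small cell lung carcinoma.

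DMS153 (3 libraries) and H209 (2 libraries) are lines of small cell lung carcinoma, a neuroendocrine tumour, and MRC5 (3 libraries) is a line of normal lung fibroblasts. All 3 lines were grown in the same serum-containing medium, and the labels name no drug, interferon or genetic change. The question the design implies is how carcinoma lines differ from the fibroblast line in gene activity and chromatin folding, and 1 list of chromatin domains from Hi-C, which records contacts between distant stretches of DNA, was given per line. Each carcinoma group is a single line, so a difference between groups is a difference between lines, and tumour, cell type and donor cannot be told apart. The labels do not say that the libraries of a line came from separate cultures, so each p-value measures only the spread between these libraries.

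The values are FPKM, fragments scaled to the length of a gene and to the mapped fragments of a library. Between 13425 and 16580 genes per library reached 1 FPKM, and relative depth, read from the low values, ran from 0.946 to 1.65 times that of MRC5 replicate 1. MicroRNA loci held 39.4% to 43.7% of the summed FPKM in the DMS153 libraries and at most 0.0192% in the others. All 9 neuroendocrine markers reached 1 FPKM in every DMS153 and H209 library, with summed levels of 2010 to 2176 and 1361 to 1369 FPKM against 0.347 to 0.479 FPKM in MRC5. All 10 fibroblast markers did so in MRC5, with sums of 9774 to 10789 FPKM against 10.6 to 11.8 FPKM in DMS153 and 34.8 to 38.6 FPKM in H209. Leukocytes are rich in class I molecules, and their 12 markers summed to 1.56 to 1.65 FPKM in DMS153, 2.25 to 2.43 FPKM in H209 and 23.2 to 35.0 FPKM in MRC5. CD68, a macrophage marker that fibroblasts can also carry, made up most of the MRC5 sum, at 27.0 ± 5.73 FPKM (SD, n = 3), and 3 of the 12 were at 0 in every MRC5 library. Endothelial markers summed to 6.80 to 7.42 FPKM in DMS153, 2.18 to 2.26 FPKM in H209 and 28.0 to 31.2 FPKM in MRC5. In each line only 1 of the 5 endothelial markers in the files reached 1 FPKM in every library. The part of leukocytes or endothelial cells in the class I values was not tested.

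The promoters below show what these genes share in sequence. Each is 300 bases, 250 before and 50 after an annotated start, in the direction of the gene, from RefSeq on GRCh38.p14. Capitals mark matches on either strand to the interferon response motif (GAANNGAAA, or 1 base longer with GAAA as its first part), the NF-kB motif, the core of the X2 box (TGACG) and the NF-Y box (CCAAT). Interferon regulatory factors bind the first of these, and NF-Y and the factors at the X boxes form the platform on which NLRC5 acts. The motifs were chosen after these sequences had been seen. HLA-B lies at chr6:31357130-31357429 (minus strand), HLA-C at chr6:31272043-31272342 (minus), B2M at chr15:44711267-44711566 (plus), TAP1 at chr6:32853655-32853954 (minus), and TAPBP at chr6:33314029-33314328 (minus).
HLA-B: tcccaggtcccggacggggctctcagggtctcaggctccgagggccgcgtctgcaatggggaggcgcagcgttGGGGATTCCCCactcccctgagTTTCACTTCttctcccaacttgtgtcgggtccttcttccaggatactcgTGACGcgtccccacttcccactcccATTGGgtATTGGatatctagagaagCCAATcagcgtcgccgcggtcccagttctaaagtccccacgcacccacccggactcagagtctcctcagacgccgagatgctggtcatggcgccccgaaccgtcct
HLA-C: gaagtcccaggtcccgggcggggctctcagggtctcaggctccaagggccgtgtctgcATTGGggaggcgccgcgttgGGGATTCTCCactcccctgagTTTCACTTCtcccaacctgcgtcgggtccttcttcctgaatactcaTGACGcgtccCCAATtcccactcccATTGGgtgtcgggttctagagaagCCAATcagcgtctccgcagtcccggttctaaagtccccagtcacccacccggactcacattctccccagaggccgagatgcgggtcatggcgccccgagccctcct
B2M: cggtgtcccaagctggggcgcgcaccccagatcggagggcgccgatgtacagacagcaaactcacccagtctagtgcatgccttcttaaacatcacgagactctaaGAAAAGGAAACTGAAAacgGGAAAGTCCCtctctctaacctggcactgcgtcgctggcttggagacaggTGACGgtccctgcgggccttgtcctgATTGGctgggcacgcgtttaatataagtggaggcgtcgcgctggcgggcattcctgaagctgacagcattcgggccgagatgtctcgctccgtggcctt
TAP1: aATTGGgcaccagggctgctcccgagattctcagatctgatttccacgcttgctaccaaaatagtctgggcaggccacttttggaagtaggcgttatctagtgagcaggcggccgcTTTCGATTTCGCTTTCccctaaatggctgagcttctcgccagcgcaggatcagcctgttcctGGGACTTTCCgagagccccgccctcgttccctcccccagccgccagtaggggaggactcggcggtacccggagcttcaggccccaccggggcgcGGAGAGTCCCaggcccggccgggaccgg
TAPBP: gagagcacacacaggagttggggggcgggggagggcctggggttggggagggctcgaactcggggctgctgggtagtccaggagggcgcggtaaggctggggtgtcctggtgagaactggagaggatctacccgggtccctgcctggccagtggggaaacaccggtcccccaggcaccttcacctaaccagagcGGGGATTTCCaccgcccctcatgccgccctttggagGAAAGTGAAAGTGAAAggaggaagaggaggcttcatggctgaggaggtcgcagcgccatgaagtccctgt

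The interferon response motif, in either of its forms, stood in the promoters of all 7 members with an entry in the table. These were HLA-B, HLA-C, HLA-F, B2M, TAP1, TAP2 and TAPBP, and 10.6% of all 35116 promoters of this length held it. Those promoters belong to 27305 gene symbols. A member was counted if any of its listed starts had a match, while the shares count each promoter singly, so the 2 are not fully alike. Taken alone, GAANNGAAA stood in 3 of 7 against 7.66%, and the longer form in 5 of 7 against 3.57%. Both forms were chosen after these sequences had been seen, so the shares are descriptions. The 7 are not independent of each other: the HLA-B and HLA-C promoters were 88.3% identical by edit distance and each was 78.3% to 79.3% identical to that of HLA-F. The B2M promoter was 46.3% to 46.7% identical to these 3. The NF-kB motif stood in 5 of 7 against 5.91%, the X2 core in 4 of 7 against 24.6%, and the NF-Y box in 5 of 7 against 34.6%. In TAP1 the printed start and not the other listed one held any of them. Overlapping matches are common here. In B2M, 2 interferon response matches overlap from 144 bases before the start, and an NF-kB match begins 125 bases before it. The 2 heavy chain promoters carry the X2 core and an NF-Y box at nearly the same places, with the X2 core starting 106 bases before the start in HLA-B and 105 in HLA-C. HLA-B and HLA-C, which were far lower in H209 than in MRC5, and TAPBP, which was not called in any comparison, thus all held the interferon response motif. A match is a run of letters and not a bound site.

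**Figure D1:**
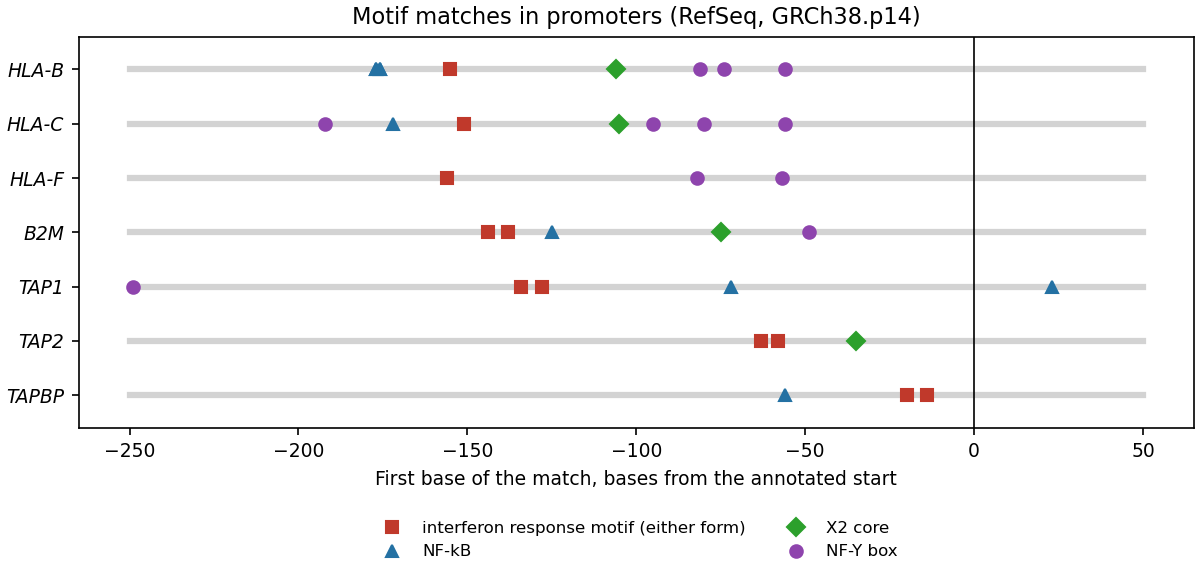
Positions of motif matches in the 7 RefSeq promoters, in bases from the annotated start (horizontal axis, the vertical line at 0); each symbol is the first base of 1 match on either strand, and the grey bar is the window searched. Every promoter holds an interferon response match (squares), between 156 bases before the start in HLA-F and 14 bases before it in TAPBP.

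The RNA of HLA-B, HLA-C and HLA-E was highest in MRC5 and lowest in H209. HLA-B, a classical heavy chain (ENSG00000234745.5, 6:31321649-31324965 on hg19), stood at 326, 374 and 327 FPKM in MRC5, 51.2, 43.4 and 63.2 FPKM in DMS153, and 1.60 and 1.24 FPKM in H209. The 3 lines formed separate steps without overlap. The mean in DMS153 was 6.51 times lower than in MRC5, and that in H209 was 242 times lower. The log2 fold changes, on log2(FPKM + 1), were −2.69 ± 0.13 (SE; limma, adjusted p = 5.11e-08) and −7.15 ± 0.15 (adjusted p = 2.91e-10). DMS153 was above H209 by 4.46 ± 0.15 (limma, adjusted p = 1.99e-08). In bulk RNA, fewer cells with a transcript and less transcript per cell cannot be told apart.

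HLA-C, the second classical heavy chain measured here (ENSG00000204525.10, 6:31236526-31239907), stood at 344, 439 and 363 FPKM in MRC5, 192, 169 and 238 FPKM in DMS153, and 1.43 and 2.097 FPKM in H209. In DMS153 it was lower than in every MRC5 library, by 1.91 times in the means, and at −0.94 ± 0.15 on the log2 scale (limma, adjusted p = 0.000228) it stayed just short of the required change of 1. Without DMS153 replicate 3, the highest of its line, the change was −1.07 and without MRC5 replicate 1 it was −1.01, and both are calls. In H209 HLA-C was 216 times lower than in MRC5, at −7.12 ± 0.16 (limma, adjusted p = 5.81e-10). Its level in DMS153 was 113 times that in H209, the widest gap between the carcinoma lines among the 9 genes, at 6.18 ± 0.16 (limma, adjusted p = 5.62e-09).

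HLA-E, a non-classical heavy chain that presents leader peptides of other class I chains to NK cells (ENSG00000204592.5, 6:30457244-30461982), parted from HLA-B and HLA-C. It stood at 160, 176 and 162 FPKM in MRC5, and at 1.55, 1.52 and 3.05 FPKM in DMS153 and 0.797 and 0.400 FPKM in H209. Both carcinoma lines lay near the floor, 81.5 and 278 times below MRC5 in the means. The log2 fold changes were −5.82 ± 0.18 (limma, adjusted p = 2.28e-09) in DMS153 and −6.72 ± 0.20 (adjusted p = 2.71e-09) in H209. The change in DMS153 was further down than that of all but 0.745% of the genes tested. Between the carcinoma lines HLA-E differed by 0.90 ± 0.20 (limma, adjusted p = 0.00297), short of the required change, and by 1.01, 1.02 and 1.08 without DMS153 replicate 1, DMS153 replicate 2 and H209 replicate 1, which are calls.

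The unequal differences of the heavy chains in DMS153 show in ratios within a library. HLA-E over HLA-B was 0.471 to 0.496 in MRC5, 0.0304 to 0.0482 in DMS153 and 0.324 to 0.499 in H209. HLA-C over HLA-B was 1.05 to 1.17 in MRC5, 3.76 to 3.89 in DMS153 and 0.897 to 1.69 in H209. So DMS153 held more HLA-C and less HLA-E per HLA-B than either other line. A ratio within a library does not depend on a factor that multiplies the whole library, though quantile normalization can change it.

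HLA-F, a further non-classical heavy chain (ENSG00000204642.9, 6:29690552-29706305), was low in every line. It stood at 1.37, 0.846 and 1.31 FPKM in MRC5, 1.61, 1.70 and 1.20 FPKM in DMS153, and 0.243 and 0.303 FPKM in H209. The DMS153 and MRC5 libraries overlapped, with a difference of 0.21 ± 0.12 (limma, adjusted p = 0.129) whose sign turned under 3 other scalings (−0.66, −0.16 and −0.05). The median of all genes tested was itself 0.44 higher in DMS153 than in MRC5, and relative to it HLA-F was at −0.23. In H209 it was lower than in every other library, at −0.76 ± 0.13 against MRC5 (limma, adjusted p = 0.000456), without reaching the required change. It was a call at −1.75 and −2.04 with pseudocounts of 0.1 and 0.01, −1.30 with quantile normalization and −1.05 with median ratio scaling. Against DMS153 the difference of 0.97 ± 0.13 (limma, adjusted p = 0.000139) became a call, at 1.06 and 1.00, without DMS153 replicate 3 and without H209 replicate 2. The authors' deposited intervals span 94.6% and 96.9% of the value to either side in H209.

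Summed over HLA-B, HLA-C, HLA-E and HLA-F, levels were 832 to 990 FPKM in MRC5, 215 to 305 FPKM in DMS153 and 4.04 to 4.07 FPKM in H209. Reads of such similar genes can be shared between them, and a sum is less exposed to that than a single gene. Other heavy chain loci are not in this sum, so it is not the whole heavy chain RNA of a library. HLA-C held 41.3% to 44.3% of the sum in MRC5, 77.9% to 78.3% in DMS153 and 35.2% to 51.9% in H209. HLA-B held 37.8% to 39.2% in MRC5, 20.2% to 20.7% in DMS153 and 30.6% to 39.3% in H209. The DMS153 libraries thus had the highest share of HLA-C and the lowest of HLA-B, while the shares of both in H209 spanned or overlapped those in MRC5.

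B2M, the light chain shared by all class I molecules (ENSG00000166710.13, 15:45003675-45011075), had the highest level of the 9 genes in every library. It stood at 3522, 3835 and 3604 FPKM in MRC5, 553, 491 and 673 FPKM in DMS153, and 470 and 488 FPKM in H209. Both carcinoma lines lay below MRC5, by 6.38 and 7.63 times in the means, at −2.68 ± 0.11 (limma, adjusted p = 1.65e-08) and −2.93 ± 0.12 (adjusted p = 2.55e-08). Between the carcinoma lines the difference was 0.24, with a 95% interval of −0.04 to 0.53 (limma, adjusted p = 0.104), and its sign turned under 2 other scalings (−0.02 and −0.41). The lowest DMS153 library and the highest H209 library lay at 491 and 488 FPKM.

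B2M and these 4 heavy chain genes were therefore out of step in H209. B2M over their sum was 3.87 to 4.23 in MRC5, 2.21 to 2.28 in DMS153 and 115 to 121 in H209. B2M over HLA-B was 10.3 to 11.0 in MRC5 and 10.6 to 11.3 in DMS153, ranges that overlap, and 294 to 394 in H209. Thus B2M and HLA-B were lower by a like factor in DMS153, while in H209 HLA-B was lower by far more.

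**Figure D2:**
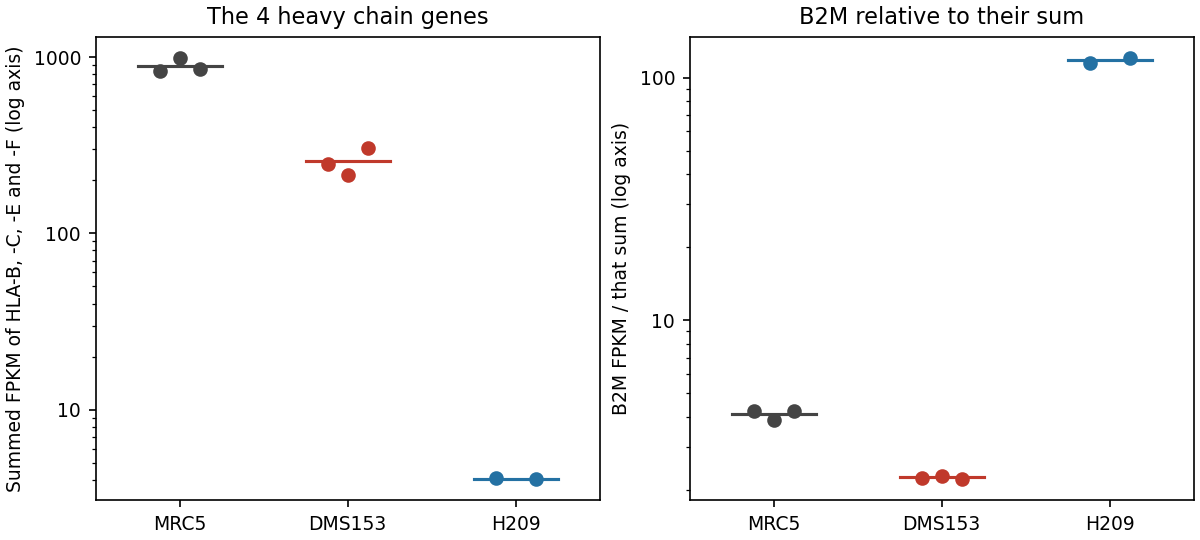
Left, summed FPKM of HLA-B, HLA-C, HLA-E and HLA-F per library; right, B2M FPKM divided by that sum (log axes; points are libraries, lines are means of 3 MRC5, 3 DMS153 and 2 H209 libraries). H209 has the lowest sum, 4.04 to 4.07 FPKM, and the highest B2M ratio, 115 to 121.

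Both transporter genes were lower in each carcinoma line than in MRC5, and lowest in H209. TAP1 (ENSG00000168394.9, 6:32812986-32821755) stood at 22.3, 25.3 and 22.5 FPKM in MRC5, 4.89, 4.67 and 6.59 FPKM in DMS153, and 0.329 and 0.312 FPKM in H209. Its 3 lines did not overlap. Against MRC5 it was 4.34 times lower in DMS153, at −1.94 ± 0.12 (limma, adjusted p = 2.09e-07), and 72.9 times lower in H209, at −4.20 ± 0.13 (adjusted p = 3.21e-09). DMS153 was above H209 by 2.26 ± 0.13 (limma, adjusted p = 5.24e-07).

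TAP2 (ENSG00000204267.9, 6:32789610-32806557) stood at 57.9, 60.7 and 50.4 FPKM in MRC5, 20.2, 28.3 and 25.8 FPKM in DMS153, and 4.93 and 2.46 FPKM in H209. The order of the lines was that of TAP1, again without overlap. In DMS153 it was 2.28 times lower than in MRC5, at −1.16 ± 0.19 (limma, adjusted p = 0.000349), and with FPKM rescaled to its sum without small RNA and mitochondrial genes the change was −0.87 and no longer a call. In H209 it was 15.3 times lower, at −3.66 ± 0.22 (limma, adjusted p = 2.57e-07). TAP2 over TAP1 was 2.24 to 2.59 in MRC5, 3.91 to 6.06 in DMS153 and 7.86 to 15.0 in H209, so TAP1 was lower by more than its partner in both carcinoma lines.

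TAPBP (ENSG00000231925.7, 6:33267471-33282164) was not called in any of the 3 comparisons on the scale used here. It stood at 32.5, 37.4 and 37.5 FPKM in MRC5, 27.6, 27.1 and 35.1 FPKM in DMS153, and 20.3 and 19.0 FPKM in H209. DMS153 overlapped MRC5, at −0.26 ± 0.11 (limma, adjusted p = 0.0454), which is below the required change and was 0.04 under the scaling without small RNA and mitochondrial genes. H209 lay below both, at −0.83 ± 0.12 against MRC5 (limma, adjusted p = 0.000133), also short of it; with median ratio scaling and quantile normalization it was a call, at −1.56 and −1.02. TAPBP over TAP1 was 1.46 to 1.67 in MRC5, 5.32 to 5.80 in DMS153 and 60.9 to 61.8 in H209.

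NLRC5, the transactivator (ENSG00000140853.11, 16:57023397-57117443), stood at 8.17, 8.15 and 7.13 FPKM in MRC5, 3.96, 4.98 and 7.81 FPKM in DMS153, and 0.917 and 0.688 FPKM in H209. DMS153 replicate 3 lay within the MRC5 range and the other 2 below it, and the difference was −0.46 ± 0.19 (limma, adjusted p = 0.0412), short of the required change. In H209 NLRC5 was 9.74 times lower than in MRC5, at −2.29 ± 0.21 (limma, adjusted p = 5.04e-06), and DMS153 was above H209 by 1.83 ± 0.21 (adjusted p = 4.28e-05). The deposited intervals for H209 span 47.0% and 55.3% of the value to either side.

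**Figure D3:**
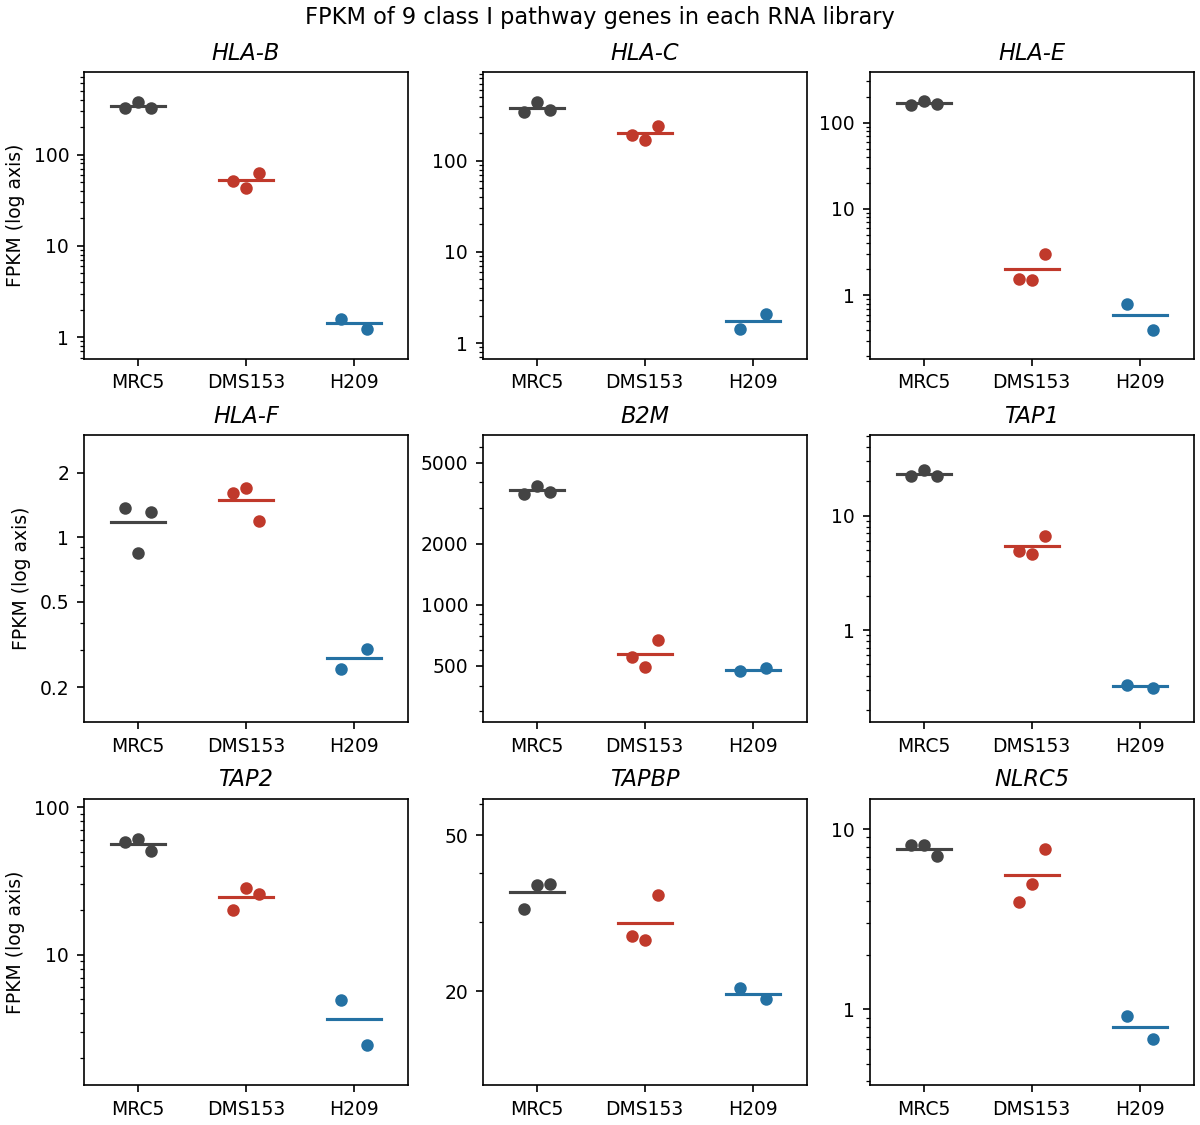
FPKM of the 9 genes (log axis, own scale in each panel) by line; points are libraries and lines are means of 3 MRC5, 3 DMS153 and 2 H209 libraries. The lines form separate steps for HLA-B, HLA-C, HLA-E, TAP1 and TAP2, B2M is low in both carcinoma lines, and MRC5 and DMS153 overlap for HLA-F, TAPBP and NLRC5.

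Counted together, 5 of the 9 genes were called lower in DMS153 than in MRC5 (HLA-B, HLA-E, B2M, TAP1 and TAP2), where a call needs an adjusted p below 0.05 and a log2 change of at least 1, and 0 were called higher. Of all genes tested, 16.4% were called lower and 34.0% higher in this comparison, 50.4% either way. The median change of the 9 was −1.16, beside 0.44 for all genes. Their libraries did not overlap in 6 of 9, and 87.3% of all genes show that. In H209, 7 of 9 were called lower than in MRC5 (the same 5 with HLA-C and NLRC5) and 0 higher, beside 14.9% and 33.0% of all genes (47.9% either way). The median change was −3.66, beside 0.46, and all 9 had no overlap, as 88.1% of genes did.

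Between the carcinoma lines, 5 of 9 were called higher in DMS153 (HLA-B, HLA-C, TAP1, TAP2 and NLRC5) and 0 lower, beside 13.8% and 13.4% of all genes (27.1% either way). All 9 had no overlap, as 82.3% of genes did. The median difference was 1.83, beside −0.04. These comparisons share libraries, so their counts are not independent of one another. At an unadjusted limma p below 0.05 and with no limit on the size, 8 of the 9 were lower and 0 higher in DMS153 against MRC5, 9 and 0 in H209 against MRC5, and 8 higher and 0 lower in DMS153 against H209.

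**Figure D4:**
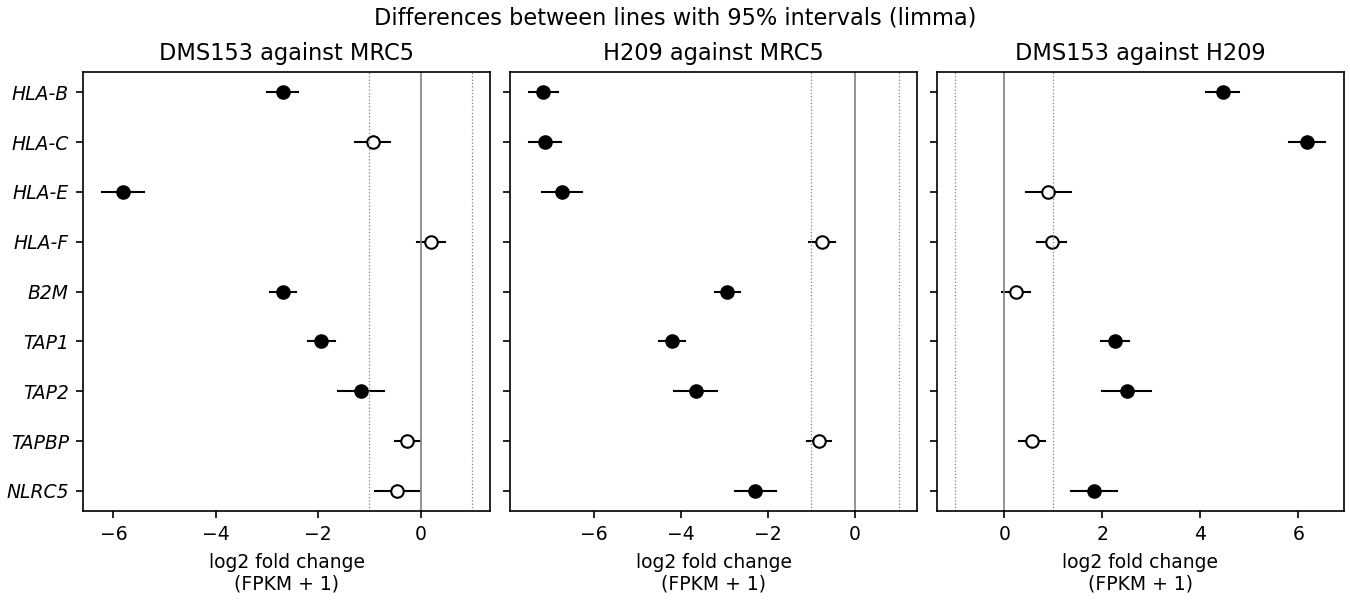
Log2 fold changes of the 9 genes on log2(FPKM + 1) in the 3 comparisons, with 95% intervals from limma; filled circles are calls, dotted lines mark a change of 1 in either direction. HLA-E is the lowest gene in DMS153 against MRC5 at −5.82, while HLA-B and HLA-C at −7.15 and −7.12 are the lowest in H209 against MRC5.

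FPKM is per length, so levels can also be ordered between genes. In MRC5 the order was B2M, HLA-C, HLA-B, HLA-E, TAP2, TAPBP, TAP1, NLRC5 and HLA-F, and the HLA-C and HLA-B ranges overlapped. In DMS153 it was B2M, HLA-C, HLA-B, TAPBP, TAP2, NLRC5, TAP1, HLA-E and HLA-F; TAPBP with TAP2, NLRC5 with TAP1 and HLA-E with HLA-F overlapped. In H209 it was B2M, TAPBP, TAP2, HLA-C, HLA-B, NLRC5, HLA-E, TAP1 and HLA-F, where HLA-C with HLA-B and NLRC5 with HLA-E overlapped. HLA-E thus moved from the fourth place in MRC5 to the eighth in DMS153.

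Some loci overlap others, and the strand of the libraries is not given, so reads can be shared. PSMB9, a catalytic subunit of the immunoproteasome that lies next to TAP1 and overlaps its locus, stood at 7.44 ± 0.122 FPKM (SD, n = 3) in MRC5, 6.71 ± 0.725 FPKM (SD, n = 3) in DMS153 and 0.159 ± 0.0348 FPKM (SD, n = 2) in H209. In DMS153 it was not called, at −0.14 ± 0.09 (limma, adjusted p = 0.162), whereas TAP1 beside it was. TAPSAR1, which also overlaps TAP1, had means of 0.897, 3.33 and 0.171 FPKM in MRC5, DMS153 and H209. Unlike TAP1, it was thus highest in DMS153. The part of shared reads in the TAP1 and PSMB9 values was not tested. The unnamed transcript XXbac-BPG248L24.12 overlaps HLA-B and had the same order of lines, with means of 38.8, 9.08 and 0.0949 FPKM in MRC5, DMS153 and H209. HLA-F-AS1, which overlaps HLA-F, had a mean of 1.02 FPKM in MRC5 and 0.0483 FPKM in DMS153.

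The counts of the gene lists stand beside those of all genes, of which 34.0% were called higher and 16.4% lower in DMS153 than in MRC5, and 33.0% and 14.9% in H209. The proteasome cuts proteins into the peptides that TAP carries. Of the 6 immunoproteasome and PA28 genes, 6 were called lower in H209 than in MRC5 and 2 in DMS153, with median changes of −2.19 and −0.71 beside 0.46 and 0.44 for all genes. PSMB8, a catalytic subunit, stood at 21.9 ± 2.02 FPKM (SD, n = 3) in MRC5, 13.7 ± 0.735 FPKM (SD, n = 3) in DMS153 and 1.29 ± 0.0381 FPKM (SD, n = 2) in H209. With median ratio and TPM scaling 5 and 4 of the 6 were called lower in DMS153. Of 5 genes of the standard proteasome and its other activators, 0 were called in H209 (limma; 4 lower and 1 higher at an unadjusted p below 0.05), and median ratio scaling gave 2 lower. In DMS153, 2 were called lower, and 3 with median ratio scaling; PSMB6 was at 19.5 ± 0.734 FPKM (SD, n = 3) against 77.6 ± 6.07 FPKM (SD, n = 3) in MRC5 and PSMB5 at 36.7 ± 2.70 FPKM (SD, n = 3) against 97.8 ± 5.23 FPKM (SD, n = 3). Between the carcinoma lines PSMB8 and PSMB9 were higher in DMS153, by 2.68 and 2.73 (limma, adjusted p = 2.37e-08 and 2.85e-08), and PSMB6 was lower, at −1.69 (adjusted p = 1.55e-07).

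Peptides are then trimmed or destroyed. Of 10 such genes, 2 were called higher and 2 lower in DMS153 than in MRC5, and 2 higher and 3 lower in H209. ERAP1, which trims peptides in the endoplasmic reticulum, was lower in both, at 42.9 ± 1.14 FPKM (SD, n = 3) in MRC5, 17.8 ± 1.06 FPKM (SD, n = 3) in DMS153 and 7.33 ± 0.739 FPKM (SD, n = 2) in H209. The cytosolic peptidase gene LAP3 was lower as well, at −1.90 and −1.23 (limma, adjusted p = 1.03e-08 and 5.63e-07). THOP1 and BLMH, 2 further peptidases of the cytosol, were higher, at 1.48 and 1.36 in DMS153 (limma, adjusted p = 2.12e-08 and 2.56e-06) and 1.55 and 1.78 in H209 (adjusted p = 4.36e-08 and 9.71e-07). With median ratio scaling the counts were 0 higher and 3 lower in DMS153, and 1 and 4 in H209.

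Of 10 genes for folding and loading in the endoplasmic reticulum, 3 were called lower in DMS153 and 5 in H209, with 0 higher in either; median ratio scaling gave 7 and 9 lower. The chaperone gene HSPA5 had the largest fall in DMS153, from 312 ± 11.2 FPKM (SD, n = 3) in MRC5 to 95.7 ± 5.84 FPKM (SD, n = 3) in DMS153 and 83.6 ± 1.27 FPKM (SD, n = 2) in H209. The chaperone gene HSP90B1 had the largest fall in H209 and was not called in DMS153, with means of 507, 354 and 118 FPKM in MRC5, DMS153 and H209, and the carcinoma lines differed by 1.58 ± 0.08 (adjusted p = 2.12e-07). CALR, the peptide loading chaperone calreticulin, named after its values were seen, had means of 347, 346 and 321 FPKM in MRC5, DMS153 and H209 and was not called.

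Other class I related chains varied more. Of 13 tested, 4 were called lower and 2 higher in DMS153 than in MRC5, and 8 lower and 2 higher in H209; with median ratio scaling the counts were 8 and 0, and 10 and 0. MICA, a stress-induced ligand of the NK cell receptor NKG2D that lies near HLA-B, stood at 36.9, 45.0 and 40.1 FPKM in MRC5, was at 0 after rounding in DMS153, and was at 0.0437 FPKM and 0 in H209. Its neighbour MICB, named after its values were seen, was at 4.82 to 5.50 FPKM in MRC5 and 4.50 to 6.31 FPKM in DMS153, which overlap, and at 0.161 to 0.228 FPKM in H209. FCGRT, the heavy chain of the neonatal Fc receptor, which also pairs with beta-2-microglobulin, was lower in DMS153 than in H209, at −2.54 ± 0.09 (limma, adjusted p = 2.65e-08), the reverse of HLA-B. ULBP1, a further NKG2D ligand, was higher in both carcinoma lines, at 1.32 and 1.14 (limma, adjusted p = 7.83e-07 and 5.82e-06).

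Factors known at class I promoters were called in both directions, as were all genes (34.0% higher and 16.4% lower in DMS153, 33.0% and 14.9% in H209). Of 16 tested, 4 were called higher and 3 lower than in MRC5 in DMS153 and likewise in H209, with 0 called between the carcinoma lines (5 higher and 3 lower in DMS153 at an unadjusted limma p below 0.05; 3 called lower in DMS153 with TPM scaling); median ratio scaling gave 2 higher and 4 lower in DMS153 and 1 and 4 in H209. IRF1, an interferon regulatory factor, stood at 43.5 ± 1.95 FPKM (SD, n = 3) in MRC5, 7.84 ± 0.369 FPKM (SD, n = 3) in DMS153 and 7.29 ± 0.771 FPKM (SD, n = 2) in H209. NFKB2, a subunit of NF-kB, was lower, at −1.78 and −1.67 (limma, adjusted p = 6.27e-08 and 2.7e-07). NFYC and NFYA, subunits of the factor that binds the NF-Y box, were higher, at 2.46 and 1.67 in DMS153 (limma, adjusted p = 1.49e-09 and 1.53e-08) and 2.14 and 1.63 in H209 (adjusted p = 1.07e-08 and 5.24e-08). IRF1, unlike NLRC5, did not separate the carcinoma lines, with a difference of 0.09 ± 0.08 (limma, adjusted p = 0.331).

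Of 15 genes of interferon receptors and JAK-STAT signalling, 4 were called lower in each carcinoma line than in MRC5, and 0 and 2 higher in DMS153 and H209. SOCS3, a feedback inhibitor of JAK kinases, stood at 14.1 ± 1.02 FPKM (SD, n = 3) in MRC5, 3.96 ± 0.628 FPKM (SD, n = 3) in DMS153 and 9.48 ± 1.30 FPKM (SD, n = 2) in H209. It was called lower in DMS153, at −1.61 (limma, adjusted p = 5.93e-07), and was short of the required change in H209, at −0.53. In H209 the kinase gene TYK2 and the phosphatase gene PTPN2, a known brake on this signal, were higher, at 1.38 and 1.59 (limma, adjusted p = 6.47e-07 and 1.51e-07). With median ratio scaling 7 were lower in DMS153 and 10 in H209, with 0 higher in either.

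Among 22 interferon-induced genes, 12 were called lower and 5 higher in DMS153 than in MRC5, and 14 lower and 4 higher in H209, with medians of −1.14 and −1.61. IFITM3, which blocks virus entry, fell from 583 ± 61.3 FPKM (SD, n = 3) in MRC5 to 7.08 ± 3.34 FPKM (SD, n = 3) in DMS153 and 2.04 ± 0.350 FPKM (SD, n = 2) in H209. OAS3, a sensor of double-stranded RNA, and the nuclease gene ISG20 were higher in both, OAS3 at 2.39 and 1.24 (limma, adjusted p = 1.57e-09 and 3.79e-07). So the list did not move as 1 block; quantile normalization left 2 and 0 genes higher in DMS153 and H209 and 15 and 16 lower.

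The sensors of foreign nucleic acid, which start interferon production, also split. Of 9, 2 were called higher and 1 lower in DMS153 than in MRC5, and 0 and 2 in H209, and quantile normalization gave 0 higher and 2 lower in DMS153. TMEM173, which encodes the adaptor STING, stood at 44.2 ± 3.13 FPKM (SD, n = 3) in MRC5, 5.66 ± 0.774 FPKM (SD, n = 3) in DMS153 and 13.9 ± 0.523 FPKM (SD, n = 2) in H209. MB21D1, which encodes the DNA sensor cGAS upstream of it, was at 6.11, 6.25 and 6.35 FPKM in DMS153, 0.0889 and 0.352 FPKM in H209, and 2.03, 1.57 and 2.11 FPKM in MRC5. It was called higher in DMS153, at 1.32 ± 0.11 (limma, adjusted p = 1.97e-06), and lower in H209, at −1.25 ± 0.12 (adjusted p = 7.39e-06). The RNA sensor gene IFIH1 was higher in DMS153 only, at 5.15 ± 0.50 FPKM (SD, n = 3) against 1.51 ± 0.331 FPKM (SD, n = 3) in MRC5, and it differed between the carcinoma lines by 1.51 (limma, adjusted p = 4.71e-06).

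MHC class II genes, which lie between TAPBP and HLA-B and load peptides in endosomes, were mostly low. Of 12 listed, 6 did not pass the filter on low values. Of 6 tested, 3 were called higher in DMS153 than in MRC5 and 2 lower in H209, and the counts in DMS153 were 1 higher and 1 lower under quantile normalization. HLA-DQB1 stood at 9.95, 9.50 and 14.8 FPKM in DMS153, 0.201 and 0.0745 FPKM in H209, and at 0, 0 and 0.0183 FPKM in MRC5. The 2 called lower in H209 were HLA-DMA and HLA-DPB1, which fell by 1.67 and 1.26 on the log2 scale. HLA-DRA, a class II alpha chain gene named after its values were seen, did not pass the filter, with at most 0.390 FPKM in any library. HLA class II genes are as prone to shared reads as class I genes.

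Polycomb repressive complex 2, which places the silencing mark H3K27me3 and is known for holding class I genes down in small cell carcinoma, had 6 of 10 genes called higher in DMS153 and 7 in H209, with 0 lower. Between the carcinoma lines 0 were called, with 3 higher and 5 lower in DMS153 at an unadjusted limma p below 0.05, and 4 were called lower there with TPM scaling. Of all genes, 34.0% and 33.0% were called higher. With median ratio scaling 4 were higher in H209. EZH2, its catalytic subunit, stood at 2.06 ± 0.224 FPKM (SD, n = 3) in MRC5, 55.8 ± 3.48 FPKM (SD, n = 3) in DMS153 and 56.7 ± 2.101 FPKM (SD, n = 2) in H209. Between the carcinoma lines, whose libraries overlapped at 52.5 to 59.4 FPKM and 55.2 to 58.2 FPKM, EZH2 differed by −0.02 ± 0.09 (limma, adjusted p = 0.821).

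Of 13 genes listed as ligands of T and NK cell receptors, 6 were called lower and 3 higher in each carcinoma line than in MRC5. FAS is on this list although it encodes a receptor. The death receptor gene FAS fell from 44.1 ± 1.80 FPKM (SD, n = 3) in MRC5 to 0.797 ± 0.107 FPKM (SD, n = 3) in DMS153 and 0.00676 ± 0.00874 FPKM (SD, n = 2) in H209. ICAM1, an adhesion ligand of T cells, fell from 34.1 ± 1.19 FPKM (SD, n = 3) to 2.17 ± 0.665 FPKM (SD, n = 3) and 0.192 ± 0.0121 FPKM (SD, n = 2). PVRL1, which encodes nectin-1, was higher in both, at 3.38 and 2.72 (limma, adjusted p = 1.78e-09 and 2.14e-08), and TNFRSF14, which encodes HVEM, was higher in DMS153 only, with a difference between the carcinoma lines of 2.72 (adjusted p = 4.59e-08).

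**Figure D5:**
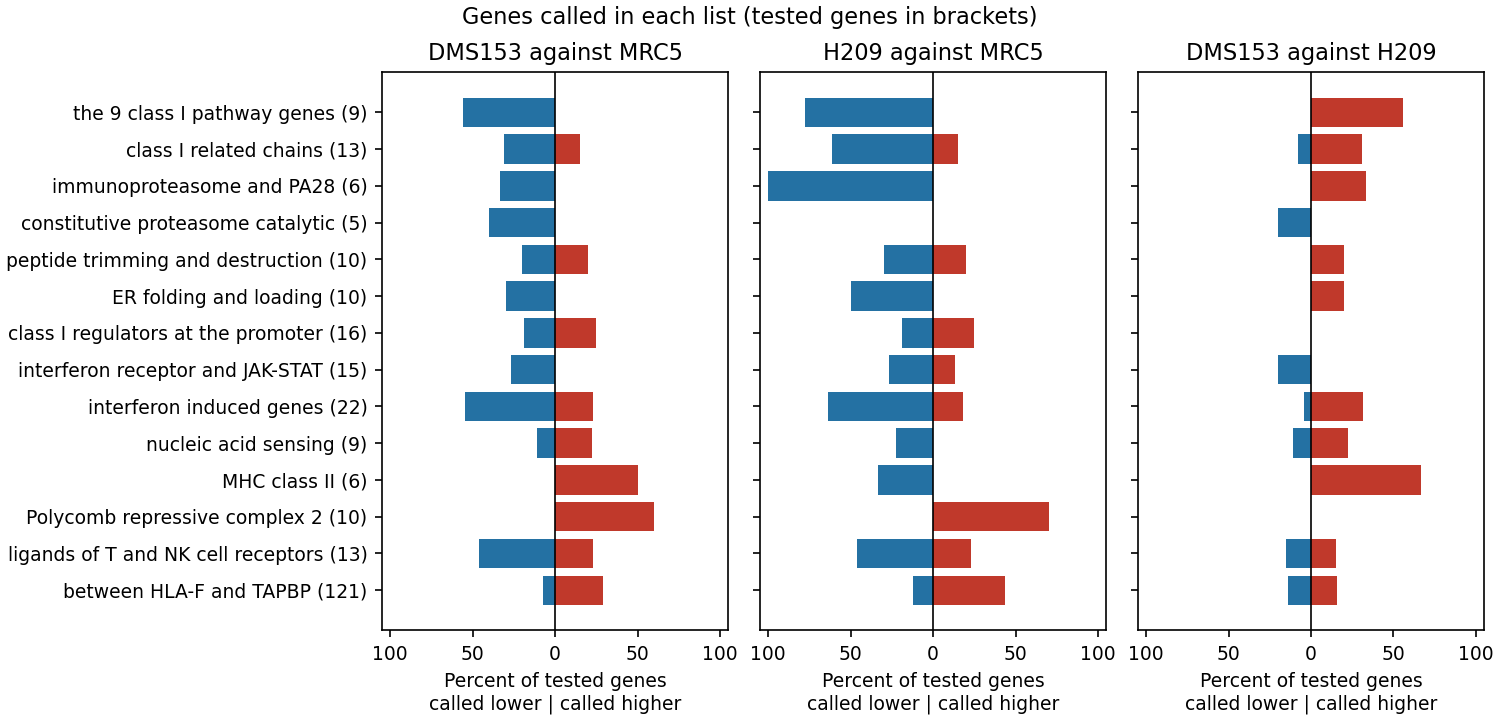
Percent of the tested genes of each list that were called lower (left of 0) or higher (right of 0) in each comparison, with the number tested in brackets. All 6 immunoproteasome and PA28 genes are lower in H209 than in MRC5, while genes between HLA-F and TAPBP are called higher more often than lower in both carcinoma lines against MRC5, as are all genes (34.0% and 16.4% in DMS153, 33.0% and 14.9% in H209), an excess that turns in DMS153 under quantile normalization and median ratio scaling.

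Other genes of the region moved in both directions. All members but B2M and NLRC5 lie on chromosome 6 from HLA-F to TAPBP, and 121 other genes tested start in that stretch. Of these, 35 were called higher and 9 lower in DMS153 than in MRC5, and 53 and 15 in H209. All genes show the same excess, with 34.0% higher and 16.4% lower in DMS153 and 33.0% and 14.9% in H209. The medians were 0.46 and 0.84 beside 0.44 and 0.46 for all genes. The split depends on the scaling, with 18 higher and 21 lower in DMS153 under quantile normalization and 19 and 26 under median ratio scaling, and with 33 and 21 and then 23 and 20 in H209. TCF19, a nuclear protein gene near HLA-C, rose from 1.73 ± 0.135 FPKM (SD, n = 3) in MRC5 to 22.2 ± 1.47 FPKM (SD, n = 3) in DMS153 and 40.5 ± 1.23 FPKM (SD, n = 2) in H209. RNY4P10, a Y RNA pseudogene, was at 233 to 251 FPKM in DMS153 and listed at 0 in every other library. The counts above include this small RNA locus. MicroRNA loci too held much of the summed FPKM in the DMS153 libraries only, 39.4% to 43.7% against at most 0.0192%. Whether the RNY4P10 values reflect the region or the small RNA content of these libraries was not tested. Within 250 kb of B2M, 9 genes were tested, with 2 higher and 1 lower in DMS153 and 2 higher and 0 lower in H209 than in MRC5. Around NLRC5, of 9 tested, 2 were higher and 2 lower in DMS153 and 2 higher and 0 lower in H209. These small counts depend on the scaling: around B2M quantile normalization gave 1 higher and 2 lower in DMS153, and of 36 such counts under 3 scalings 18 moved by over 1.5 times.

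Hi-C gave 5023 domains in DMS153, 3987 in H209 and 3701 in MRC5, with median lengths of 240, 300 and 300 kb, from 1 library per line and so without a test. The lists used here hold 0 domains between HLA-F and TAPBP in any of the 3 lines. The 7 genes there lay 865 to 4242 kb from the nearest domain end, so their folding cannot be compared. The middle of B2M lay in a domain at 15:44840000-45239998 (400 kb) in DMS153 and in one at 15:44860000-45079998 (220 kb) in MRC5, 167 and 73 kb from the nearest end. In H209 no domain held it and the nearest end was 253 kb away. With only the domains scored above the median of their line, 0 of the 9 genes lay in a domain in DMS153 or MRC5. NLRC5 lay in no domain, 50, 30 and 30 kb from the nearest end in DMS153, H209 and MRC5.

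Genes whose profile over the 8 libraries lay nearest were found by the root mean square difference of centred log2(FPKM + 1) among 12108 genes. With 3 lines the measure mostly compares 3 means, and 423 genes reached a Pearson correlation above 0.95 with HLA-B, 1393 with B2M and 502 with TAP1. Nearest to HLA-B were FXYD5 (0.21), TM4SF1, TIMP3, IFI16 and LAMC1 (0.73). FXYD5 had means of 167, 28.3 and 0.543 FPKM in MRC5, DMS153 and H209. Nearest to B2M were C5orf45 (0.10), PPIC, PROCR, CD59 and AHNAK2 (0.13), and CD59, which shields cells from complement, had means of 412, 73.4 and 57.4 FPKM. Nearest to TAP1 were TMEM159 (0.14), SGIP1, FZD2, FMN1 and DCBLD1 (0.19), and TMEM159 had means of 25.4, 4.96 and 0.276 FPKM. The measure is a description of these libraries.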

How the data were processed

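The members and the gene lists were chosen with earlier results of these data known, so their counts are descriptions. The deposited RNA tables give FPKM per gene with an interval and a status, per the file headers. The submitters' processing notes name TopHat2 2.1.0, Cufflinks 2.2.0, Bowtie2, HOMER 4.8 and hg19; the sources used here do not give library selection or strand, and the tables hold no counts. DM153 in 3 RNA titles was read as DMS153, the name in the cell line field. How HLA reads were assigned is not given, and alleles that differ from the reference can lose reads. The Hi-C lists give domain positions and a deposited score of unstated meaning, which the authors did not define in the labels and which served only to rank domains.

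In R 4.3.3, log2(FPKM + 1) of genes with at least 1 FPKM in at least 2 libraries was fitted with limma 3.58.1, all 8 libraries in 1 model with a mean per line (5 residual degrees of freedom), eBayes with trend and 2-sided tests, and p-values adjusted by Benjamini-Hochberg over 19066 genes. Calls need an adjusted p below 0.05 together with a log2 change of 1 or more in size. The procedure was tested on simulated data in which only a small set of genes differed in 1 line, unlike the data here. That test does not cover the wide differences between these lines or a shift of the median gene. Values given as times higher or lower are ratios of mean FPKM. Named genes are all 9 members, from each list up to 2 called genes that rose most and 2 that fell most in either carcinoma line against MRC5, and the 5 genes of at least 5 mean FPKM nearest to HLA-B, B2M and TAP1; others are said to be named after their values were seen. Of the genes this rule picks, 1 is not reported here. Loci are on hg19 as deposited. Distances to domain ends were taken from the middle of a locus, because the tables give no strand. Alternatives were pseudocount, filter, scaling, variance model, failed genes, summed identifiers, libraries left out and a replicate block.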

Additional observations from a re-analysis of the deposited data

Results flagged for a closer look

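Differences between the 2 carcinoma lines in their change against MRC5 are given here for the 5 members called between them and for the 1 gene of the lists called in opposite directions against MRC5; other list genes named above, such as PSMB8 and FCGRT, were called between the lines too. The MRC5 libraries cancel from this difference, which is then the difference between DMS153 and H209 (limma on log2(FPKM + 1)). HLA-B stood at 4.46 (adjusted p = 1.99e-08), HLA-C at 6.18 (adjusted p = 5.62e-09), TAP1 at 2.26 (adjusted p = 5.24e-07), TAP2 at 2.50 (adjusted p = 7.63e-06) and NLRC5 at 1.83 (adjusted p = 4.28e-05), each higher in all 3 DMS153 libraries than in both H209 libraries. MB21D1, the DNA sensor cGAS, differed by 2.58 (adjusted p = 1.54e-07), called higher than MRC5 in DMS153 and lower in H209. These differences kept their direction and their side of the threshold for the 5 members under all 21 alternatives; MB21D1 was not among the single genes recomputed.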

How the results depend on the processing

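Of 567 recomputed member values (9 genes, 3 comparisons, 21 alternatives each), 538 kept direction and side of the threshold, 21 passed it newly, 1 no longer passed it and 7 turned. Those that turned were small: HLA-F in DMS153 against MRC5 (−0.66, −0.16 and −0.0471 with quantile, median ratio and TPM scaling), TAPBP in DMS153 against MRC5 (0.0368 without small RNA and mitochondrial genes), B2M in DMS153 against H209 (−0.0162 quantile, −0.41 TPM) and TAPBP in DMS153 against H209 (−0.0555 TPM). HLA-C in DMS153 against MRC5 was a call at −1.57 and −1.37 with median ratio and TPM scaling, and NLRC5 at −1.01 with median ratio scaling. The count of members called ran from 4 to 7 in DMS153 against MRC5, 7 to 9 in H209 against MRC5 and 5 to 7 in DMS153 against H209, and leaving out single libraries gave 5 to 6, 7 and 5 to 6. With a pseudocount of 0.1, HLA-F and HLA-E in DMS153 against H209 were calls at 2.09 and 1.60. The median of all genes in DMS153 against MRC5, 0.44 here, was −0.03, −0.05, 0.13 and 0.67 with quantile, median ratio and TPM scaling and without small RNA and mitochondrial genes; in H209 against MRC5, 0.46 became 0.03, −0.03, 0.70 and 0.63, and in DMS153 against H209 TPM scaling moved −0.04 to −0.59.

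Same-numbered libraries did not deviate together (correlations from −0.01 to 0.12), so the numbers were not taken as pairs; with the replicate number as a block, 5, 7 and 5 members were called, the counts without it, and no member's call changed.

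Of the genes between HLA-F and TAPBP, those higher in DMS153 than in MRC5 numbered 18 and 19 with quantile and median ratio scaling in place of 35, and those lower 21, 26 and 24 (TPM) in place of 9; in H209, 33 and 23 were higher in place of 53, and 58 were lower in DMS153 than in H209 with TPM in place of 17. Of 306 list counts under 3 scalings, 61 moved by over 1.5 times. With only the domains scored above the median of their line, 0 members lay in a domain in DMS153 and 0 in MRC5, where B2M did before. The causes were not tested. The files hold no counts, so low values such as HLA-F and NLRC5 in H209 are limited by depth only as far as the deposited intervals show.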
